A study of Saccharomyces cerevisiae with 6 samples.

Results

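Transcripts of 41 genes of the DNA replication machinery were followed in budding yeast, chosen by name from the origin recognition complex to the enzyme that supplies deoxyribonucleotides. Each of the 41 was read by 1 probe set of the array, out of 5449 S. cerevisiae genes measured. The samples are 3 control arrays and 3 zymolyase arrays of total RNA. Both groups carry the strain label BY4743 and the genotype MATa/α with the alleles his3Δ1, leu2Δ0, met15Δ0, ura3Δ0 and lys2Δ0, and both grew for 2 days at 25 °C in YPD, a rich medium, with 0.01% of the detergent SDS. RNA of the control cells came from the FastRNA Pro Red kit. The zymolyase cells were held for 20 min at 25 °C with zymolyase, a glucan-digesting enzyme preparation that opens the cell wall. Their RNA was then isolated with the MagExtractor kit. Enzyme, the hold of 20 min and kit therefore cannot be told apart in any difference given here. The study's title asks how expression responds to zymolyase, and its design text names RNA extraction by both methods. Whether the 3 samples of a group are separate cultures is not in the labels, and the p-values therefore rest on a spread between samples that may be technical.

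DNA replication starts at origins, where the origin recognition complex (ORC) with Cdc6 and Cdt1 loads the MCM helicase in G1. In S phase Cdc45 and the GINS complex join the MCM ring to form the active helicase, and 3 DNA polymerases copy the strands: alpha with primase lays primers, epsilon extends the leading strand and delta the lagging strand. The sliding clamp PCNA, its loader RFC and the single-strand binding protein RPA serve the fork, and many of these genes are transcribed periodically in the yeast cell cycle, in part through the transcription factor MBF.

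All 41 genes gave a clear signal. The values are MAS5 signal intensities on a linear scale, and the members lay between 111.5 and 3837.2 on any array. The 27 probe sets of the array's other species, fission yeast, that bear the symbol of a member read 0.1 to 11.0, with a median of 1.95. On each of the 6 arrays every member was above a background of 8.3 to 10.9, the signal that 95% of fission yeast probe sets did not exceed. Each probe set has its own scale, so the changes below compare signals only between arrays. Comparisons of different probe sets, with the background above and among the markers that follow, are coarse. Markers of cell type went against the mating type in the strain label. The 4 alpha-specific genes summed to signals of 12320 to 15105 on control and 9813 to 16822 on zymolyase arrays. The 7 a-specific genes summed to 206.6 to 255.0 and 243.9 to 402.4, and 9 sporulation genes to 584 to 615 and 621 to 668. No marker was at 0, but the lowest single values, 8.0 (a-specific) and 9.4 (sporulation), were near the background.

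Between zymolyase and control arrays, 15 of the 41 replication genes rose, 7 fell and 19 did not pass the test (limma, Benjamini-Hochberg adjusted p under 0.05 over all 5449 genes). The same rule called 22.5% of all genes higher and 20.0% lower, against 36.6% and 17.1% of the members (either way 42.5% and 53.7%), so the share of members that fell was near that of all genes. The median log2 change of the members was 0.12, and that of all genes 0.04. Centring each array on its median gene lowered every change by 0.16, in members and all other genes alike. The members' median was then -0.04 and lay as far above that of all genes as before. With this centring 12 members were higher and 8 lower, where 17.5% and 26.8% of all genes were. With the replicate number of the labels as a block, 15 were higher and 9 lower, where 31.2% and 27.3% of all genes were. Control and zymolyase values did not overlap in 24 members (58.5%), against 52.9% of all genes. The largest rises were those of RAD27, DNA2 and POL1 and the largest falls those of CDC6, PSF3 and RFC5. No other member passed with a change of 2-fold or more, and such changes were found in 9.82% (higher) and 8.55% (lower) of all genes. In these bulk samples a change in the share of cells that replicate and a change in transcript per cell cannot be told apart.

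**Figure D1:**
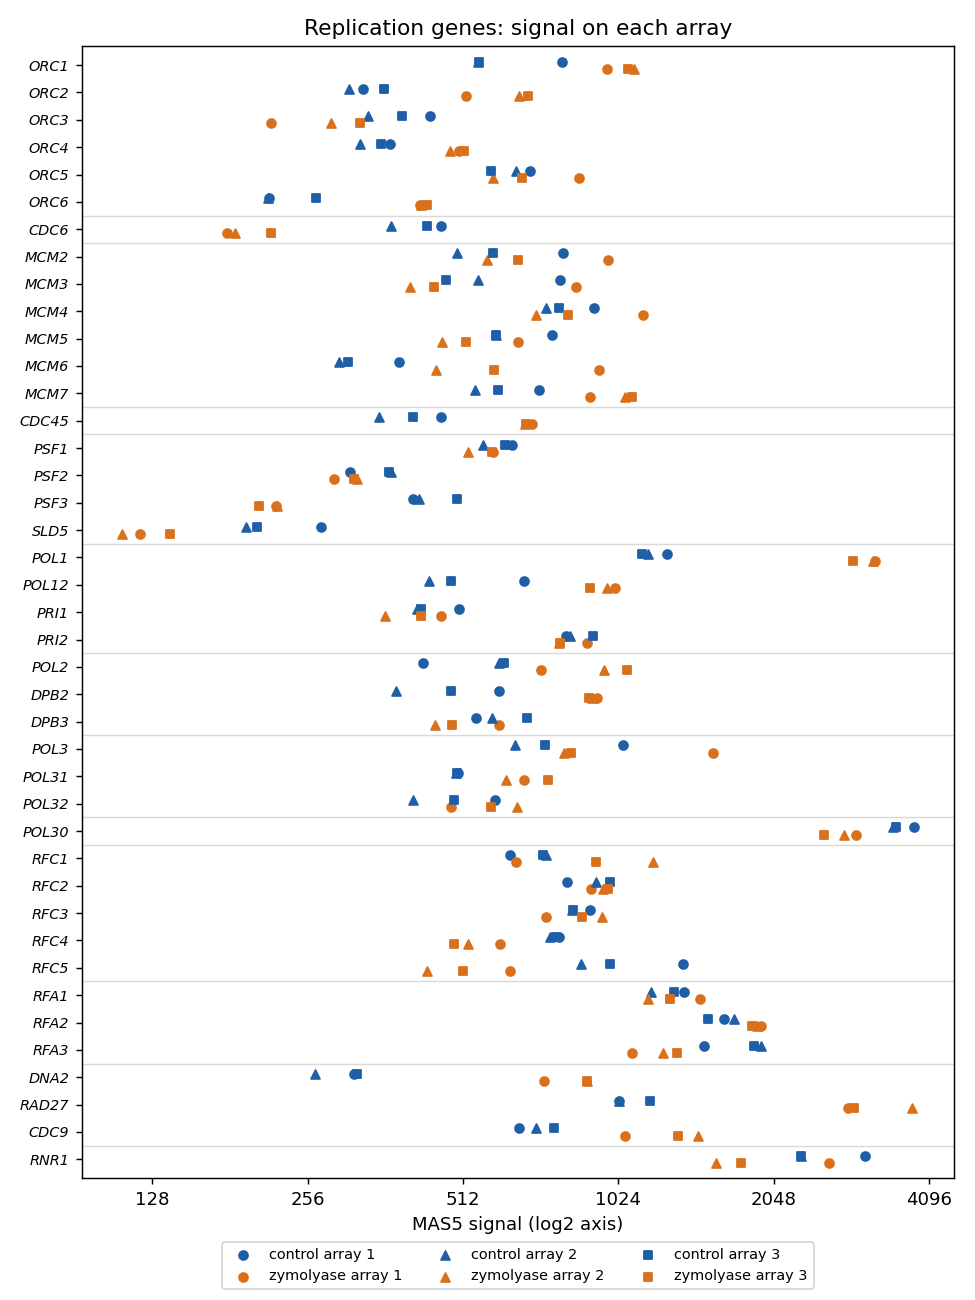
MAS5 signal of each replication gene (rows, grouped by complex) on the 3 control arrays (blue) and the 3 zymolyase arrays (orange), on a log2 axis, with the marker shape giving the array number. The groups lie well apart for POL1, DNA2 and RAD27 and overlap for MCM2 to MCM5.

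The longer a gene, the more often it was higher in the zymolyase arrays, and this was so among the replication genes as well. Of the 16 members with a coding length over 2000 bases, 9 rose and 0 fell by limma at that threshold, where 47.1% of all genes of that length rose and 6.43% fell. At an unadjusted p under 0.05 these counts were also 9 and 0. Of the 14 members up to 1200 bases, 1 rose and 6 fell, where 11.3% and 28.8% of all such genes did. The remaining 11 gave 5 rises and 1 fall, where 22.1% of genes of their length rose and fewer fell. Across the 41 genes, which share the same arrays and are not independent replicates, the change and coding length correlated at a Spearman rho of 0.54 (Pearson r of 0.56 with log2 length), and across all genes at 0.34 (0.28). Signal at the 3′ end of 8 control genes of the array over signal at the 5′ end was 1.49 to 1.99 on control and 4.57 to 7.21 on zymolyase arrays, and its part in the members' changes was not tested. With the length trend of all genes removed, 9 members were higher and 7 lower, where 17.7% and 19.3% of all genes were. The same with the replicate block gave 13 and 10, where 27.6% and 27.5% of all genes were. In that fit ORC1, MCM7, POL2 and POL30 did not pass, while RFA2 passed as higher and ORC3, MCM3, MCM5 and RNR1 as lower. ORC4, MCM6, POL31, RFC4, RFA3 and CDC9, whose calls were lost with the length trend alone removed, kept them there.

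**Figure D2:**
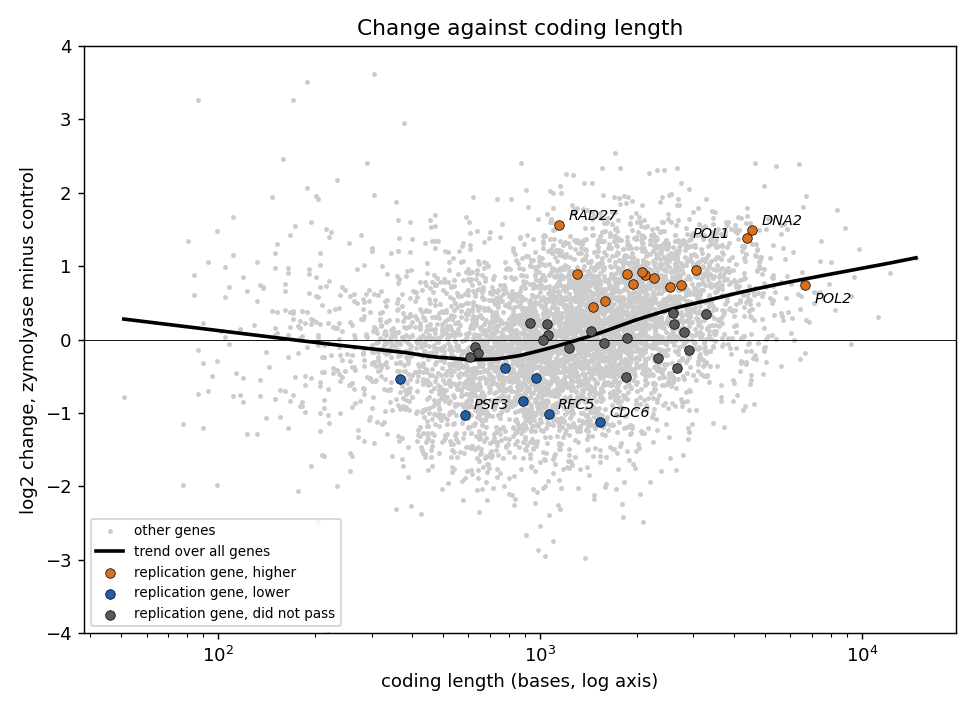
Log2 change (zymolyase minus control) of each gene against its coding length in bases on a log axis, with the 5449 genes in grey (1 lies outside the axis), their trend as a line, and the replication genes coloured by call. RAD27 lies well above the trend, CDC6 and RFC5 below it, and POL2 on it.

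Origin recognition genes were higher in the zymolyase arrays for 4 of 6 subunits, and 2 did not pass, where 22.5% of all genes rose. ORC6, whose product is needed to load MCM in yeast, had signals of 215.1, 213.9 and 265.5 on the control arrays and 423.2, 425.0 and 434.9 on the zymolyase arrays, and the groups lay far apart. It rose 1.86-fold (log2 change 0.89, SE 0.16, adjusted p = 0.00373). ORC2 rose 1.86-fold, from 326.9, 307.6 and 360.0 in control to 518.6, 655.7 and 683.0 in zymolyase arrays (log2 change 0.89, SE 0.17, adjusted p = 0.00459). ORC2 and ORC6 kept their call under each of the 16 alternatives.

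ORC1, an ATPase subunit of the complex, had signals of 796.8, 547.2 and 550.3 on the control arrays and 972.8, 1095.5 and 1070.8 on the zymolyase arrays. Every zymolyase value exceeded every control value, and control array 1 stood above the other 2 controls. The rise was 1.68-fold (log2 change 0.75, SE 0.18, adjusted p = 0.0134, range 6.29e-06 to 0.233 over the alternatives). It was lost with the length trend removed (log2 0.30, adjusted p = 0.233), with control array 2 (0.0577), control array 3 (0.0552) or zymolyase array 2 (0.0509) left out. ORC4, a further subunit, rose 1.43-fold, from 369.3, 323.7 and 354.6 to 502.9, 482.3 and 515.2 (log2 change 0.52, SE 0.14, adjusted p = 0.0200, range 0.00452 to 0.0825). Its call was lost with control array 2 (0.0815), control array 3 (0.0592), zymolyase array 2 (0.0506) or zymolyase array 3 (0.0825) left out, after median centring (0.0508) and with the length trend removed (0.0548).

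ORC3 had the opposite sign, with signals of 441.9, 335.1 and 389.9 on the control arrays and 217.5, 284.2 and 322.9 on the zymolyase arrays. The groups did not overlap, although the highest zymolyase value was close to the lowest control value. Its log2 change was -0.51 (95% interval -0.97 to -0.05, adjusted p = 0.0734), and it passed as lower with the replicate block, at adjusted p = 0.0499, after median centring (0.0200), after quantile normalization (0.0385), with the length trend removed (0.0249) and with both that and the block (0.0151), in a range of 0.0151 to 0.200. ORC5, another subunit, read 690.2, 647.6 and 579.8 on the control arrays and 857.3, 584.0 and 666.4 on the zymolyase arrays, with overlapping groups (log2 change 0.12, 95% interval -0.30 to 0.54). ORC5 neighbours POL2 in the R64 gene order, and POL2, described below, was called higher.

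CDC6, the ATPase that joins ORC to load MCM, fell the most of all members. It had signals of 463.5, 370.7 and 436.3 on the control arrays and 178.8, 185.1 and 216.8 on the zymolyase arrays, so that the highest zymolyase value was less than the lowest control value by a wide margin. The fall was 2.19-fold (log2 change -1.13, SE 0.17, adjusted p = 0.00213), at the 7.32 percentile of all changes, and the log2 change was -1.22 with the length trend removed. The call held in each alternative that tested the gene.

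Of the 6 subunits of the MCM helicase, MCM6 and MCM7 rose and the other 4 did not pass. All MCM genes are over 2000 bases, where 47.1% of all genes rose. MCM7 had signals of 719.2, 538.8 and 598.4 on the control arrays and 900.8, 1056.1 and 1088.5 on the zymolyase arrays. The groups did not overlap, and the rise was 1.65-fold (log2 change 0.72, SE 0.17, adjusted p = 0.0102, range 1.60e-05 to 0.172). MCM6 rose 1.93-fold, from 384.1, 294.0 and 306.5 to 939.6, 453.8 and 588.0 (log2 change 0.95, SE 0.27, adjusted p = 0.0237, range 0.000529 to 0.217), with zymolyase array 1 far above the other 2. With the length trend removed neither passed, at log2 0.31 (adjusted p = 0.172) for MCM7 and 0.46 (0.217) for MCM6. The call of MCM6 was also lost with control array 2 (0.0784), control array 3 (0.0732) or zymolyase array 3 (0.0550) left out. With the length trend removed and the replicate block, MCM6 passed as higher (0.0464).

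The other MCM genes overlapped between the groups. MCM2 read 797.9, 498.8 and 584.4 on the control arrays and 978.6, 568.5 and 654.5 on the zymolyase arrays (log2 change 0.22, 95% interval -0.37 to 0.80). MCM3 read 787.3, 548.3 and 475.2 on the control arrays and 848.8, 404.7 and 450.5 on the zymolyase arrays (log2 change -0.14, 95% interval -0.86 to 0.59). MCM3 passed as lower in 1 setting, the replicate block with the length trend removed (log2 -0.61, adjusted p = 0.0125, range 0.0125 to 0.987). In MCM2 and MCM3 the array numbered 1 was the highest of its group, by more than the groups differed. MCM4 had a log2 change of 0.10 (95% interval -0.37 to 0.58) and MCM5 of -0.25 (-0.68 to 0.18), and array 1 was again the highest of each group. MCM5 passed as lower with the length trend removed, at log2 -0.61 (adjusted p = 0.0361, range 0.00612 to 0.632). MCM2 and MCM4 changed sign in that setting, to -0.21 and -0.35, without passing.

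CDC45, which binds the MCM ring when origins fire, had signals of 464.3, 351.1 and 409.1 on the control arrays and 695.4, 676.2 and 678.2 on the zymolyase arrays. The zymolyase values were nearly equal and all above the controls, and the rise was 1.68-fold (log2 change 0.75, SE 0.16, adjusted p = 0.00664), with the call kept under every alternative. GINS, the other partner of the ring, gave 2 falls and 2 genes that did not pass. All GINS genes have coding lengths up to 1200 bases, where 28.8% of all genes fell. PSF3 fell 2.03-fold, from 408.6, 420.5 and 498.7 to 221.9, 223.0 and 205.6 (log2 change -1.02, SE 0.16, adjusted p = 0.00230). SLD5 fell 1.79-fold, from 272.0, 194.0 and 204.1 to 121.0, 111.5 and 138.6 (log2 change -0.84, SE 0.20, adjusted p = 0.0116). For both genes the groups lay apart, and the calls held in each alternative that tested them. PSF1 and PSF2 overlapped between the groups, with log2 changes of -0.10 (95% interval -0.43 to 0.22) and -0.18 (-0.54 to 0.17).

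Within polymerase alpha-primase the polymerase subunits rose and the primase subunits did not pass. Both polymerase genes are over 2000 bases, where 47.1% of all genes rose, and neither primase gene is. POL1, the catalytic subunit, had signals of 1273.9, 1167.4 and 1135.1 on the control arrays and 3222.1, 3185.9 and 2911.1 on the zymolyase arrays. The lowest zymolyase value was far above the highest control value. POL1 rose 2.61-fold (log2 change 1.38, SE 0.13, adjusted p = 0.000993), at the 95.8 percentile of all changes, and by 0.72 with the length trend removed, for a gene of 4407 bases. POL12, the regulatory subunit, rose 1.83-fold, from 672.8, 439.8 and 484.4 to 1009.3, 971.8 and 900.3 (log2 change 0.87, SE 0.19, adjusted p = 0.00775), and its groups did not overlap. PRI1, the catalytic primase subunit, had a log2 change of -0.11 (95% interval -0.49 to 0.27), and PRI2, the large one, of -0.05 (-0.37 to 0.27). The intervals of the primase genes end below the lower bounds for POL1 (1.08) and POL12 (0.44), although the differences between subunits were not tested.

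Polymerase epsilon gave 2 rises, both in genes over 2000 bases, where 47.1% of all genes rose. DPB2, its essential second subunit, rose 1.90-fold, from 600.9, 379.8 and 484.9 to 930.9, 908.9 and 898.0 (log2 change 0.93, SE 0.19, adjusted p = 0.00618), with groups apart and the call kept under every alternative. POL2, the catalytic subunit and with 6669 bases the longest member, had signals of 428.7, 601.8 and 615.3 on the control arrays and 723.6, 960.9 and 1063.5 on the zymolyase arrays. In both groups array 1 was the lowest, and no values overlapped. The rise was 1.67-fold (log2 change 0.74, SE 0.21, adjusted p = 0.0247, range 0.000166 to 0.772), and with the length trend removed it was gone, at log2 -0.09 (adjusted p = 0.772). The call was also lost with zymolyase array 2 (0.0841) or zymolyase array 3 (0.0933) left out, after median centring (0.0618) and after quantile normalization (0.0703). DPB3, a small histone-fold subunit, had a log2 change of -0.24 (95% interval -0.63 to 0.16, adjusted p = 0.304, range 0.0194 to 0.871), and passed as lower without both arrays numbered 1 (0.0194).

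Of polymerase delta, POL31 alone passed, and not firmly. It read 499.4, 496.8 and 499.0 on the control arrays and 671.4, 621.4 and 748.1 on the zymolyase arrays, with control values that were almost equal, and rose 1.36-fold (log2 change 0.44, SE 0.14, adjusted p = 0.0362, range 0.0129 to 0.148). Its call was lost with control array 2 (0.106), control array 3 (0.101), zymolyase array 1 (0.0510), zymolyase array 2 (0.0525) or zymolyase array 3 (0.148) left out, after either other scaling (0.113 and 0.110) and with the length trend removed (0.0653). POL3, the catalytic subunit, read 1047.1, 646.0 and 738.1 on the control arrays and 1563.5, 804.6 and 828.1 on the zymolyase arrays. Array 1 was far above the others in both groups, and the log2 change was 0.35 (95% interval -0.33 to 1.04). POL32, the subunit that also binds PCNA, had a log2 change of 0.21 (-0.24 to 0.65, adjusted p = 0.415, range 0.0160 to 0.847) and passed as higher without both arrays numbered 1 (0.0160).

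POL30, which encodes the sliding clamp PCNA, had signals of 3837.2, 3494.4 and 3535.7 on the control arrays and 2957.7, 2798.2 and 2557.5 on the zymolyase arrays. The zymolyase values were all below the controls, by a modest margin. The fall was 1.31-fold (log2 change -0.39, SE 0.13, adjusted p = 0.0414, range 0.0130 to 0.416). It was lost with control array 1 (0.0993), control array 2 (0.0813), control array 3 (0.0929), zymolyase array 2 (0.0911) or zymolyase array 3 (0.153) left out, without both arrays numbered 1 (0.0531), without the intensity trend (0.0569), and with the length trend removed, where the change was -0.14 (0.416).

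The clamp loader gave 2 falls among 5 subunits. RFC2 to RFC5 have coding lengths up to 1200 bases, where 28.8% of all genes fell. RFC5 had signals of 1365.4, 865.1 and 984.6 on the control arrays and 632.3, 435.9 and 511.4 on the zymolyase arrays, with no overlap. It fell 2.02-fold (log2 change -1.01, SE 0.22, adjusted p = 0.00802) and by 0.90 on the log2 scale with the length trend removed, and kept its call under every alternative. RFC5 and POL30 are neighbours in the R64 gene order. RFC4 fell 1.44-fold, from 785.6, 756.2 and 774.3 to 602.6, 522.4 and 491.8 (log2 change -0.52, SE 0.14, adjusted p = 0.0207, range 0.00129 to 0.0920). The call of RFC4 was lost with control array 2 (0.0645), control array 3 (0.0685), zymolyase array 2 (0.0644) or zymolyase array 3 (0.0920) left out, and with the length trend removed (0.0827).

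RFC2 and RFC3, small subunits like RFC4 and RFC5 and of similar coding length, had log2 changes of 0.06 (95% interval -0.26 to 0.39) and -0.01 (-0.35 to 0.34), with overlapping groups. RFC1, the large subunit, read 631.6, 741.2 and 731.6 on the control arrays and 649.0, 1196.6 and 924.9 on the zymolyase arrays, with zymolyase array 1 among the controls and the other 2 zymolyase arrays above them. Its log2 change was 0.36 (95% interval -0.17 to 0.88, adjusted p = 0.243, range 0.00562 to 0.847), and it passed as higher with zymolyase array 1 (0.0295) left out and without both arrays numbered 1 (0.00562).

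Of replication protein A, which coats single-stranded DNA, only the smallest subunit passed. Its gene RFA3 has a coding length of 369 bases, and 28.8% of all genes up to 1200 bases fell. RFA3 fell 1.44-fold, from 1497.1, 1939.0 and 1873.3 to 1087.8, 1247.4 and 1330.3 (log2 change -0.53, SE 0.16, adjusted p = 0.0300, range 0.00193 to 0.112). That call was lost with control array 2 (0.112), control array 3 (0.104), zymolyase array 1 (0.0621), zymolyase array 2 (0.0715) or zymolyase array 3 (0.0573) left out, and with the length trend removed (0.110). RFA1, the large DNA-binding subunit, changed least among the RPA genes, with signals of 1289 ± 95.1 in control and 1309 ± 153 in zymolyase arrays (mean ± SD, n = 3) and a log2 change of 0.02 (95% interval -0.32 to 0.36). RFA2 read 1636.7, 1716.0 and 1527.8 on the control arrays and 1938.3, 1901.5 and 1860.4 on the zymolyase arrays, without overlap, and its log2 change of 0.23 (95% interval -0.07 to 0.52) did not pass (adjusted p = 0.186, range 0.0175 to 0.734). RFA2 passed as higher with the length trend removed (log2 0.41, 0.0366).

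All 3 genes for joining Okazaki fragments rose, and 2 of them made the largest rises of any member. Of all genes 22.5% rose, and 47.1% of those over 2000 bases, as DNA2 and CDC9 are. RAD27, the flap endonuclease that removes primer ends, had signals of 1025.9, 1027.9 and 1181.2 on the control arrays and 2857.1, 3794.1 and 2932.3 on the zymolyase arrays. The rise was 2.94-fold (log2 change 1.56, SE 0.16, adjusted p = 0.001000), at the 97.6 percentile of all changes. With a coding length of 1149 bases RAD27 is a short member, and with the length trend removed its log2 change was 1.64. DNA2, the nuclease and helicase that trims long flaps, rose 2.80-fold, from 314.8, 263.9 and 318.6 to 733.2, 890.3 and 891.9 (log2 change 1.49, SE 0.16, adjusted p = 0.001000). This was at the 97.0 percentile, and with the length trend removed the change was 0.81 for a gene of 4569 bases. CDC9, the DNA ligase that seals the nicks, rose 1.79-fold, from 657.8, 709.5 and 767.2 to 1056.8, 1457.8 and 1335.6 (log2 change 0.84, SE 0.17, adjusted p = 0.00570, range 1.41e-05 to 0.0504), and missed the threshold only with the length trend removed (log2 0.49, 0.0504). RAD27 and DNA2 kept their call under every alternative.

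**Figure D3:**
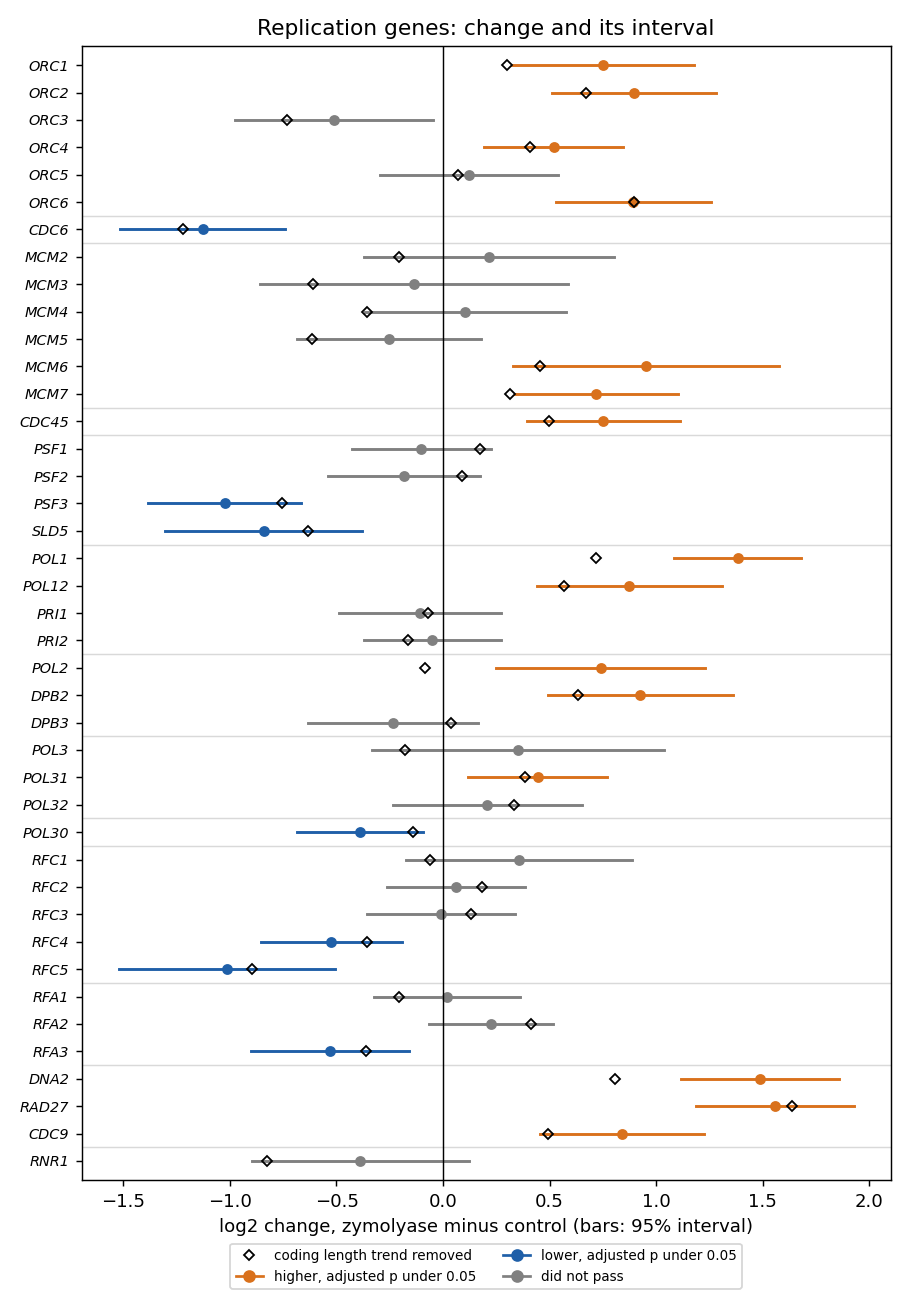
Log2 change (zymolyase minus control) of each replication gene with its 95% interval from limma, coloured by call, and open diamonds for the change with the coding length trend removed. RAD27, DNA2 and POL1 stand highest and CDC6, PSF3 and RFC5 lowest, and the diamond of POL2 lies near 0.

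RNR1, the large subunit of ribonucleotide reductase that makes deoxyribonucleotides, read 3077.8, 2308.3 and 2313.0 on the control arrays and 2618.8, 1582.0 and 1767.7 on the zymolyase arrays. Array 1 was the highest of each group, and zymolyase array 1 lay among the controls. The log2 change was -0.39 (95% interval -0.90 to 0.12, adjusted p = 0.191, range 0.00196 to 0.472). It passed as lower with the replicate block (0.0237), with zymolyase array 1 (0.0295) left out, without both arrays numbered 1 (0.0112) and with the length trend removed (log2 -0.82, 0.0228).

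The small subunits of the reductase, which are no members, were lower. RNR2 read 6420.6, 6612.0 and 5618.8 on the control arrays and 3439.1, 2129.6 and 2330.8 on the zymolyase arrays and fell 2.41-fold (log2 change -1.27, SE 0.20, adjusted p = 0.00242). RNR4 read 7179.5, 7151.9 and 5694.0 on the control arrays and 4289.1, 2051.0 and 2129.3 on the zymolyase arrays and fell 2.50-fold (log2 change -1.32, SE 0.28, adjusted p = 0.00775), with zymolyase array 1 well above the other 2. WTM1, which anchors the small subunits in the nucleus, fell 2.64-fold, from 4370.6, 4734.5 and 3947.3 to 2431.1, 1126.9 and 1618.3 (log2 change -1.40, SE 0.26, adjusted p = 0.00471). RNR3, a second large subunit known for induction by DNA damage, rose 1.67-fold (log2 change 0.74, SE 0.26, adjusted p = 0.0479, range 2.91e-05 to 0.353), from 423.8, 233.8 and 218.5 to 479.2, 462.8 and 458.4. The call of RNR3 was lost with control array 2 (0.148), control array 3 (0.154), zymolyase array 1 (0.0841), zymolyase array 2 (0.119) or zymolyase array 3 (0.109) left out, after either other scaling (0.0893 and 0.0838), without the intensity trend (0.0583) and with the length trend removed (0.353).

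Beyond the members, 46 further genes of replication, its nucleotide supply, its transcription factors and its checkpoint were listed, and all 46 were measured. Of these, 20 rose (43.5%), 7 fell (15.2%) and 19 did not pass, where 22.5% of all genes rose and 20.0% fell. Their median log2 change was 0.33 and their median coding length 1629 bases, against 0.04 and 1236 bases over all genes. With the length trend removed 13 were higher (28.3%) and 7 lower (15.2%), where 17.7% and 19.3% of all genes were. By role, 5 of 8 initiation factors rose and 0 fell, 6 of 12 fork proteins rose and 0 fell, and of 9 genes of nucleotide supply 1 rose and 5 fell, in each case by limma. At an unadjusted p under 0.05 the initiation factors gave 5 and 0 and the fork proteins 7 and 0. The fork genes have a median coding length of 2140.5 bases, and 6 of 12 is near the 47.1% of all genes over 2000 bases that rose. The genes of nucleotide supply have a median of 915 bases, where 28.8% of all genes up to 1200 bases fell. With the length trend removed, 4 initiation factors and 5 fork genes were higher and 4 genes of nucleotide supply lower. Of the alternative clamp loaders 2 of 5 rose and 1 fell, of the checkpoint genes 3 of 5 rose and 1 fell, and of the transcription factor and cyclin genes 3 of 7 rose. The checkpoint genes have a median coding length of 2466 bases, and 47.1% of all genes over 2000 bases rose. With the length trend removed, 1 clamp loader was higher and 1 lower, and the same held for the checkpoint genes. Of the transcription factor and cyclin genes 2 were then higher and 1 lower.

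Among the initiation factors, SLD3, which brings Cdc45 to the origin, rose 3.05-fold, from 193.8, 106.7 and 147.6 to 413.2, 480.3 and 435.7 (log2 change 1.61, SE 0.23, adjusted p = 0.00195). TAH11, which encodes Cdt1, the partner of Cdc6 in loading MCM, rose 2.03-fold, from 282.6, 254.6 and 244.4 to 553.5, 481.8 and 552.6 (log2 change 1.02, SE 0.15, adjusted p = 0.00205). TAH11 and CDC6 thus differed in sign, and the groups of both lay apart. MCM10, needed to activate the helicase, rose 2.84-fold from low signals of 71.9, 69.6 and 125.2 to a wide range of 142.0, 395.0 and 256.2 (log2 change 1.51, SE 0.40, adjusted p = 0.0175, range 1.37e-05 to 0.0630), a call lost with control array 2 (0.0609), zymolyase array 2 (0.0630) or zymolyase array 3 (0.0548) left out.

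The kinase subunits that fire origins differed in their calls. DBF4, the regulatory subunit, rose 1.59-fold (log2 change 0.66, SE 0.15, adjusted p = 0.00905, range 0.00121 to 0.0917), a call lost with the length trend removed (0.0917), and the kinase CDC7 had a log2 change of 0.15 (95% interval -0.24 to 0.53). With the length trend removed and the replicate block, DBF4 passed as higher (0.0418). Whether the changes of DBF4 and CDC7 differed was not tested.

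At the fork, MRC1, the checkpoint mediator that travels with it, rose 3.77-fold, from 331.4, 560.8 and 631.7 to 1079.8, 2812.1 and 2072.5 (log2 change 1.91, SE 0.38, adjusted p = 0.00560), with array 1 the lowest in both groups. EXO1, a nuclease of mismatch repair and flap removal, rose 3.08-fold (log2 change 1.62, SE 0.17, adjusted p = 0.001000), TOP1, topoisomerase I, 2.58-fold (log2 change 1.37, SE 0.18, adjusted p = 0.00158), and CTF18, the large subunit of an alternative clamp loader, 2.83-fold (log2 change 1.50, SE 0.21, adjusted p = 0.00170). LCD1, also known as DDC2 and partner of the checkpoint kinase Mec1, rose 2.31-fold (log2 change 1.21, SE 0.31, adjusted p = 0.0157, range 3.27e-06 to 0.0616), a call lost with zymolyase array 2 (0.0616) or zymolyase array 3 (0.0526) left out and with the length trend removed (0.0595). With the length trend removed and the replicate block, LCD1 passed as higher (0.0039).

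For MBF, the factor that drives many replication genes in late G1, both subunit genes rose. Both are over 2000 bases, where 47.1% of all genes rose. MBP1, the DNA-binding subunit, read 279.8, 347.5 and 398.5 on the control arrays and 766.7, 890.1 and 783.0 on the zymolyase arrays and rose 2.40-fold (log2 change 1.26, SE 0.18, adjusted p = 0.00172). SWI6 rose 1.71-fold (log2 change 0.77, SE 0.18, adjusted p = 0.0121, range 0.000979 to 0.132), a call lost with the length trend removed (0.132). Of the S-phase cyclins, CLB5 had a log2 change of -0.12 (95% interval -0.53 to 0.30) and CLB6 of -0.61 (-1.20 to -0.01, adjusted p = 0.0924, range 0.000250 to 0.271). CLB6 passed as lower with the replicate block (0.0104), after either other scaling (0.0380 and 0.0441), with the block and the length trend removed (0.0196), with zymolyase array 1 (0.00816) left out and without both arrays numbered 1 (0.000250).

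Some replication genes differed more between array numbers than between the groups. The arrays numbered 1 stand apart from the others over all genes, and deviations from the group mean on control array 1 and zymolyase array 1 correlated at 0.49. In 18 of the 41 members (43.9%) array 1 was the highest of its group in both control and zymolyase, against 27.8% of all genes. Among the 18 were 5 of the 6 MCM genes, MCM7 being the exception. In 7 members (17.1%) array 1 was the lowest in both groups, against 23.0% of all genes. The log2 signal of array 1 minus the mean of arrays 2 and 3 was 0.63 in control and 0.99 in zymolyase arrays for MCM3. It was 0.60 in control and 0.94 in zymolyase arrays for POL3 and 0.56 in control and 0.68 in zymolyase arrays for MCM2. The same difference for RNR1 was 0.41 in control and 0.65 in zymolyase arrays. Over all genes the median was 0.02 and 0.03, and the 95th percentile 1.05 and 0.81. What the arrays numbered 1 have in common is not given in the labels, and these differences were not tested.

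**Figure D4:**
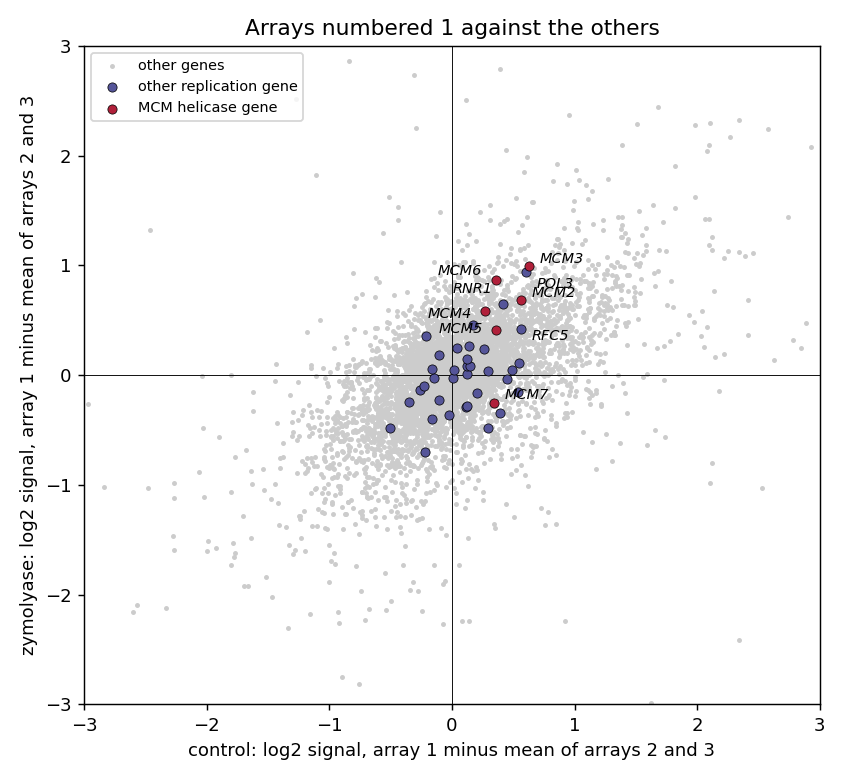
Log2 signal of array 1 minus the mean of arrays 2 and 3 in control (horizontal axis) and zymolyase (vertical axis), for all genes in grey (23 lie outside the axes), the MCM genes in red and the other replication genes in blue. MCM2 to MCM6, POL3, RNR1 and RFC5 lie in the upper right, and MCM7 lies below 0 on the vertical axis.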

How the data were processed

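Total RNA was hybridised to 6 single-colour Affymetrix arrays, 3 per group, and the titles give the groups. The deposited values are MAS5 signal intensities on a linear scale for 10928 probe sets, per the submitters' processing notes. Version and settings of MAS5 are not given in the sources used here. Means trimmed by 2% at each end were 500.2 to 500.3 on all arrays, so a common scaling had been applied. The 7 zeros, none in an S. cerevisiae probe set, were set to 0.1.

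Gene symbols are those of the platform annotation, brought up to date by NCBI gene identifier with the R64 table, which also gave coding lengths. A single symbol was given for 7244 probe sets, several for 1 and none for 3683. Of 5498 S. cerevisiae probe sets the brightest per gene was used, giving 5449 genes. All 41 members had 1 probe set, and none of these carries the suffix of a probe set shared between transcripts. Log2 signals were compared with limma 3.58.1 in R 4.3.3 (lmFit, eBayes with intensity trend) over all genes, with Benjamini-Hochberg adjustment and a threshold of 0.05. Changes are zymolyase minus control with the moderated standard error (SE) and 95% interval. On simulated data for this comparison with 5449 genes, 53% of changes of 1 and 91% of changes of 2 (log2) were recovered. These shares belong to the simulation alone. Recovery in the measured data, where 42.5% of all genes passed, was not tested. Precision is limited by the number of arrays, and 3 against 3 arrays cannot give an exact two-sided permutation p below 0.1.

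Arrays of the same number deviated together from their group means, with correlations of 0.49, 0.20 and 0.41 across genes. Control array 2 with zymolyase array 3 gave 0.23, and control array 3 with zymolyase array 2 gave 0.20. The values thus set the arrays numbered 1 apart and do not settle a pairing of numbers 2 and 3. No wording of the labels pairs the samples either, so the replicate block rests on the numbers alone. The length trend was a loess curve of change on log2 coding length over all genes, subtracted from the zymolyase arrays. Other alternatives were median centring, quantile normalization, log2(signal + 16), no intensity trend, a filter on dim genes, the mean of a gene's probe sets, and leaving out arrays.

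The members, the gene lists and the alternatives were chosen with earlier results of these data known. All members are named. Of the 46 other replication genes, those past the threshold and changed 2-fold or more are named, together with CDC7, DBF4, RNR2, RNR3, RNR4, MBP1, SWI6, CLB5 and CLB6. The fit that combines the replicate block with the length trend was added after the data were seen.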

Additional observations from a re-analysis of the deposited data

How the results depend on the processing

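The log2 changes of 12 members (8 higher, 4 lower) were called alike under every alternative that tested them: RAD27, DNA2, POL1, POL12, DPB2, CDC45, ORC2 and ORC6 as higher and CDC6, PSF3, SLD5 and RFC5 as lower. CDC6 and SLD5 are among the dim genes that a filter removed and were not tested with it. Of the 22 called members 14 kept the call without each single array, the 12 above with MCM7 and CDC9. These counts, and those below with 1 array left out, were not set beside all genes. Whether calls of members persist more often than those of other genes is therefore not known. Leaving out 1 array gave 11 to 15 members higher, and 4 to 7 lower, with 11 and 4 when any array numbered 2 or 3 was omitted. With fewer arrays the test has less power. For the other replication genes leaving out 1 array gave 15 to 23 higher and 5 to 8 lower. With the length trend removed 9 members and 13 other replication genes were higher, and in the same setting with the replicate block 13 and 15. The median change of the members was 0.12, and 0.04 to 0.19 without 1 array. It was -0.0383 after median centring, which shifts all genes alike, and -0.0358 after quantile normalization. The spread it was read against, an SD of 0.11 between the arrays' own medians within a group, was chosen after the data were seen, in place of the smaller SD between same-numbered pairs. The replicate block gave 15 members higher and 9 lower, adding ORC3 and RNR1 as lower, and changed no other member's call.

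Small changes that did not pass took the other sign in some settings, and so did that of POL2. With the length trend removed, with or without the replicate block, these were MCM2 at -0.21, MCM4 at -0.35, PSF1 at 0.17, PSF2 at 0.0890, POL2 at -0.0863, DPB3 at 0.0396, POL3 at -0.18, RFC1 at -0.0623, RFC3 at 0.13 and RFA1 at -0.21 (log2). Median centring gave ORC5 at -0.0383, MCM4 at -0.0549, RFC2 at -0.0990, RFA1 at -0.14 and CDC7 at -0.0140, and quantile normalization ORC5 at -0.0363, MCM4 at -0.0358, RFC2 at -0.0685 and RFA1 at -0.0770. Leaving out each array in turn gave ranges that cross 0, of ORC5 -0.0314 to 0.25, MCM2 -0.0118 to 0.40, MCM3 -0.47 to 0.0729, MCM4 -0.0894 to 0.25, PRI2 -0.11 to 0.00331, RFC2 -0.0149 to 0.12, RFC3 -0.0906 to 0.0893, RFA1 -0.0691 to 0.0972 and CLB5 -0.23 to 0.0202. Without both arrays numbered 1 the other sign was taken by RFC3 at 0.13 and RFA1 at -0.0241. Apart from the length trend and the scalings, whose construction shifts every value, the cause was not tested.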
